A study of Mus musculus with 4 samples.

Results

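The transcripts described here belong to 10 genes of iron uptake, iron storage and iron recycling in the red pulp of the spleen. They were taken by symbol from a count table of 35798 named genes: the transferrin receptor Tfrc, the endosomal reductase Steap3, the iron transporters Slc11a2, Slc11a1 and Slc40a1, the ferritin chains Fth1 and Ftl1, the heme oxygenase Hmox1, and Spic and Vcam1, which mark red-pulp macrophages. Each of the 10 symbols had a row, and each row passed the filter on low counts, as 1 of 13822 genes tested. The samples were Ly49H+ NK cells sorted from the spleen on D3.5 after infection with MCMV (murine cytomegalovirus), from NSG hosts that had received TNFR2 KO NK cells of the CD45.2 allele mixed with CD45.1 wild-type NK cells. There were 2 libraries per genotype, each from spleens of 3 hosts that were pooled before the sort, and the sample labels give libraries of either genotype with the same number 1 shared pool. All hosts were infected, so the comparison holds no uninfected cells, and the effects of genotype, CD45 allele and sort gate cannot be told apart. NSG mice lack T, B and NK cells but keep macrophages, granulocytes and erythroid cells, and strains of NOD background such as NSG carry CD45.1 themselves. The mice of the study were 6–12 weeks old.

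Iron enters most cells as transferrin bound to the transferrin receptor, is reduced and moved out of the endosome, and is then used or kept within ferritin, a shell of heavy and light chains. Red-pulp macrophages take up old red cells, break down their heme with heme oxygenase and return the iron to blood through ferroportin, and the transcription factor Spi-C is needed for their development. Dividing lymphocytes raise the transferrin receptor, known on cells as CD71, and the study used that protein as a measure of nutrient transport in NK cells.

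Several of these transcripts carry the iron-responsive element, a hairpin that iron regulatory proteins bind when iron is scarce, which blocks translation from a 5′ UTR and protects the transcript from decay when it lies in a 3′ UTR. The sequences are shown because they separate the uptake receptor from the ferritin genes. The position in the transcript also separates it from the export gene, whose sequence is not shown. RNA levels of these genes are compared next. The search asked for a C, 5 bases of any kind, the loop CAGTGN and 5 bases that pair with those before the loop (G with T allowed), with a last loop base other than G, on the sense strand of 1 principal transcript per gene (GENCODE M21, GRCm38). Such an element was found in 4 of the 10 genes and in a UTR of 0.462% of 21877 transcripts. Capitals mark the 6-base loop in 30 bases written 5′ to 3′. The ferritin elements lay in 5′ UTRs, on chr19:9982732-9982761 (plus strand) for Fth1 and on chr7:45459778-45459807 (minus strand) for Ftl1.
Fth1: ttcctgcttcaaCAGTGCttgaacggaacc
Ftl1: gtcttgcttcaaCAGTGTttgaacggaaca
Those found in Tfrc lay in its 3′ UTR on the plus strand, on chr16:32631219-32631248, chr16:32631598-32631627, chr16:32631663-32631692 and chr16:32631710-32631739, in this order. Each is named by the distance in bases from the end of the coding sequence to the C at which the match starts.
Tfrc 892: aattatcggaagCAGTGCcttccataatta
Tfrc 1271: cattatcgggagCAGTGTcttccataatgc
Tfrc 1336: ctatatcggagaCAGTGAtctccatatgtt
Tfrc 1383: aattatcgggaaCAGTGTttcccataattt

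The Fth1 and Ftl1 elements shared 26 of 30 bases, whereas each of the 4 Tfrc elements shared 9 to 13 of 30 with either of them. These counts include the C and the CAGTG that the search itself required of every element. The C at which the match starts lay at base 93 of the transcript in Fth1 and at base 84 in Ftl1. In Slc40a1 it lay at base 96, also in the 5′ UTR. The 4 elements found in Tfrc began 892 to 1383 bases after the end of the coding sequence. With its strict pairing, the search can miss other elements. RNA counts do not show whether any element was bound.

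**Figure D1:**
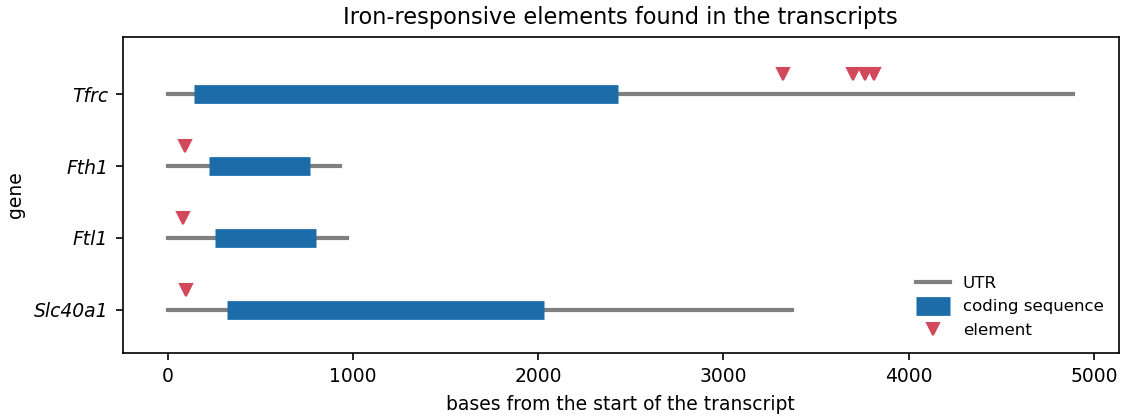
Positions of the iron-responsive elements (triangles) in the principal transcripts of the 4 genes that held one, in bases from the transcript start, with UTRs as lines and coding sequences as bars, to scale. The 4 elements found in Tfrc lie after its coding sequence, and the single elements found in Fth1, Ftl1 and Slc40a1 lie before theirs, 84 to 96 bases from the start.

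Libraries held 32713054 to 39543464 estimated counts. Levels are given as CPM, counts brought to a common library size that was corrected with edgeR's TMM factors. Tnfrsf1b, the targeted gene, was at 265 and 269 CPM in wild-type and at 55.1 and 58.6 CPM in TNFR2 KO, so its transcripts were fewer but not absent in the KO libraries. Markers of the sorted cells were present in every library, with Klra8, which encodes Ly49H, at 313 to 316 CPM in wild-type and 726 to 762 CPM in TNFR2 KO, Ncr1 at 256 to 258 and 511 CPM, and Eomes at 220 and 354 to 356 CPM. Of 40 NK lineage genes, 39 were higher in TNFR2 KO and 1 lower (adjusted p under 0.05), with a median log2-fold change of 0.56. Over all genes tested, 24.2% were higher and 26.2% lower at that threshold. Macrophage markers were also present, and all 17 listed were lower in TNFR2 KO at an adjusted p under 0.05, with a summed level of 1494.6 to 1512.1 CPM in wild-type and 291 to 293 CPM in TNFR2 KO. Markers listed for other cells were present too, and which cells their transcripts came from was not tested. Basophil or mast cell markers were lower in 8 of 9 cases (summed level 1253 to 1258 against 31.2 to 31.6 CPM), megakaryocyte markers in 5 of 6 (37.2 to 40.2 against 3.88 to 4.78 CPM) and dendritic cell or class II markers in 6 of 11, with 1 higher (2181 to 2208 against 1037 to 1062 CPM). The higher one, Itgax, which NK cells also express, rose from 419 and 409 to 882 and 908 CPM, and without it the dendritic cell or class II sum was 1762 to 1799 against 154 to 155 CPM. Of 6 T cell markers, 5 were lower and 1 higher (819 to 829 against 688 to 692 CPM), and of 2 testable B cell markers 1 was lower and 1 higher (39.97 to 41.2 against 48.0 to 50.4 CPM over all 6 listed).

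Recycling genes of the red pulp were far lower in the TNFR2 KO libraries, the ferritin chains were roughly halved, and the genes of transferrin iron uptake differed least. In edgeR's quasi-likelihood test, adjusted over all genes by the Benjamini-Hochberg method, 9 of the 10 genes were lower in TNFR2 KO at an adjusted p under 0.05, where 26.2% of all genes tested were lower and 24.2% higher. With an absolute log2-fold change over 1 in addition, the thresholds of the study, 7 of the 10 were lower, where 11.8% of all genes were lower and 1.56% higher. The median log2-fold change of the 10 genes was -1.88, beside -0.003 over all genes. The split of all genes depended on the scaling. With libraries scaled on 40 NK lineage genes, 10 of the 10 genes were lower at an adjusted p under 0.05, where 80.1% of all genes were lower and 2.34% higher, and 7 of the 10 were lower past both thresholds, where 19.1% were lower and 0.427% higher. With the library size alone, 9 of the 10 were lower at an adjusted p under 0.05, where 31.7% of all genes were lower and 17.5% higher. In bulk RNA, fewer cells of a type and less RNA per cell cannot be told apart.

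**Figure D2:**
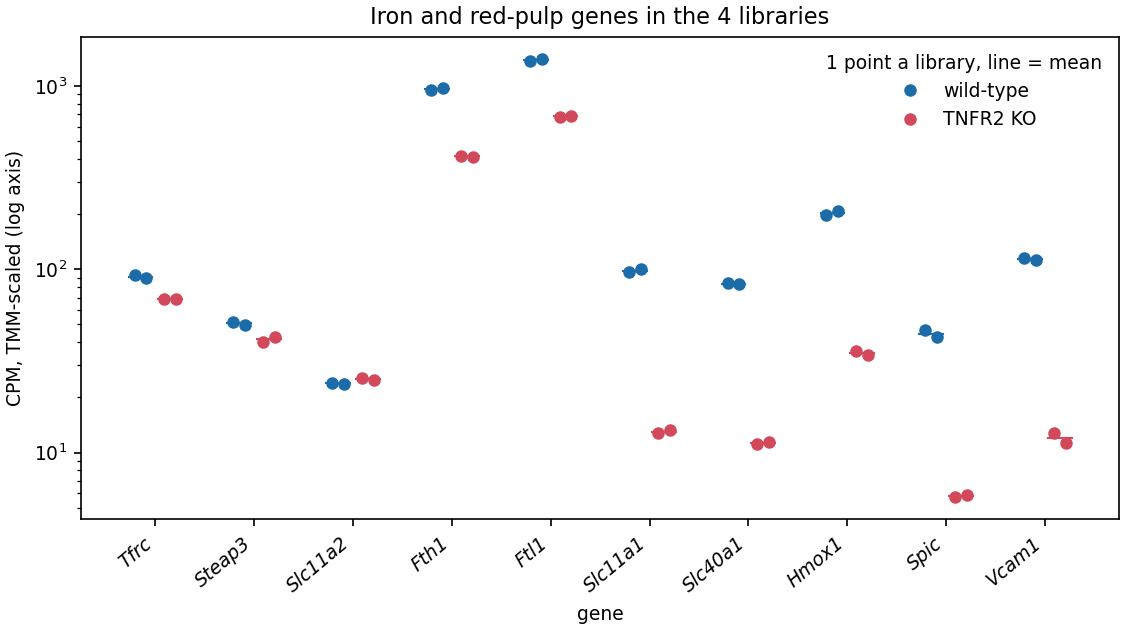
CPM of the 10 genes (log axis) in each wild-type (blue) and TNFR2 KO (red) library, 1 point a library, with lines at the group means. The duplicates lie close together, and the genotypes separate most for Slc11a1, Slc40a1, Hmox1, Spic and Vcam1 and least for Slc11a2, at 23.8 to 24.0 CPM in wild-type and 25.0 to 25.4 CPM in TNFR2 KO.

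Among the uptake genes, Tfrc lies at chr16:32608920-32632794 (plus strand) of GRCm38. Wild-type libraries held it at 92.8 and 89.4 CPM, TNFR2 KO libraries at 68.6 and 68.9 CPM. Both KO libraries were below both wild-type libraries, at 75.5% of the wild-type mean. The log2-fold change was -0.41 (standard error, SE, 0.038, adjusted p = 2.19e-06 in edgeR's test), under the fold threshold. With scaling on NK lineage genes it was -0.95 (adjusted p = 5.16e-10), still under that threshold, where the median of all genes was -0.55. Genes of the erythroid lineage, whose precursors carry much transferrin receptor, were lower as well. Their 11 listed markers in the table summed to 280 to 284 CPM in wild-type and 60.0 to 62.6 CPM in TNFR2 KO. Of these, 10 of 11 were lower at an adjusted p under 0.05, beside 26.2% of all genes. Of their defining markers, Hba-a1 was at 125 and 131 CPM in wild-type and 24.7 and 24.1 CPM in TNFR2 KO, Hbb-bs was at 89.5 and 88.9 CPM against a KO mean of 17.9 CPM, and Alas2 was at 4.535 and 4.204 CPM against 0.543 and 0.718 CPM. Their part in the difference in Tfrc was not tested.

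Steap3, which reduces ferric iron in the endosome, lies at chr1:120190757-120272705 (minus strand). It measured 51.8 and 49.8 CPM in wild-type and 40.3 and 42.6 CPM in TNFR2 KO, again without overlap. Its log2-fold change was -0.29 (SE 0.0498, adjusted p = 0.00036), and -0.84 (adjusted p = 1.55e-08) with scaling on NK lineage genes.

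Slc11a2 encodes DMT1, which carries ferrous iron from the endosome into the cytosol, and lies at chr15:100387898-100425072 (minus strand). It measured 24.0 and 23.8 CPM in wild-type and 25.4 and 25.0 CPM in TNFR2 KO. The KO libraries were slightly above the wild-type libraries, but the log2-fold change of 0.08 (SE 0.0576) did not pass the test (adjusted p = 0.286), and it was -0.47 (adjusted p = 9.86e-06) when libraries were scaled on NK lineage genes. Slc11a2 was thus close to the median of all genes under either scaling. Of its sequence in 31-base stretches, 5.74% also occurs in other genes, mostly in Gm5475.

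The ferritin chains were the most abundant of the 10 genes. Fth1, at chr19:9980598-9985098 (plus strand), encodes the heavy chain that oxidises iron for storage. It measured 957 and 977 CPM in wild-type and 417 and 409.6 CPM in TNFR2 KO. The KO level was 42.7% of wild-type, and the log2-fold change was -1.23 (SE 0.0242, adjusted p = 8.93e-13). Ftl1, which encodes the light chain, lies at chr7:45457944-45459884 (minus strand). It measured 1367 and 1412 CPM in wild-type and 676 and 691 CPM in TNFR2 KO. The KO level was 49.2% of wild-type, with a log2-fold change of -1.02 (SE 0.0243, adjusted p = 4.35e-12), just past the fold threshold. Without wild-type replicate 2 it was -0.99 and without TNFR2 KO replicate 1 it was -0.997, both short of that threshold.

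Both chains together took 0.237% and 0.244% of the counts in wild-type and 0.107% and 0.108% in TNFR2 KO. The ratio of Fth1 to Ftl1 counts was 0.70 and 0.69 in wild-type and 0.62 and 0.59 in TNFR2 KO, so the heavy chain was reduced somewhat more than the light chain. The count of Ftl1 is the least certain of the 10, as 64.1% of its 31-base stretches occur in other genes, 54.4% in the pseudogene Ftl1-ps1. That pseudogene was given 84 and 35 counts in wild-type and 26 and 16 in TNFR2 KO. Adding 5 listed pseudogenes to their parent genes left the log2-fold changes at -1.23 for Fth1 and -1.02 for Ftl1. Fth1-ps, with 5 and 4 counts in wild-type and 5 and 1 in TNFR2 KO, was not added. Ftl1 shared stretches with 33 other genes, and those outside the listed pseudogenes were not added either. For Fth1, 3.24% of these stretches were shared.

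Slc11a1, also called Nramp1, moves metal ions out of the phagosome of macrophages and neutrophils and lies at chr1:74375195-74386062 (plus strand). It measured 96.9 and 99.9 CPM in wild-type and 12.9 and 13.2 CPM in TNFR2 KO. The wild-type mean was 7.55 times the KO mean, or -2.92 on the log2 scale (SE 0.0507, adjusted p = 2.99e-13). Neutrophil markers were lower too, with all 14 listed genes lower at an adjusted p under 0.05, beside 26.2% of all genes. Their summed level was 994 to 1009 CPM in wild-type and 94.2 to 96.4 CPM in TNFR2 KO. The largest falls were in Mpo, Elane, Prtn3 and Ctsg, with Mpo at 356 and 361 CPM in wild-type and 3.98 and 3.93 CPM in TNFR2 KO. The defining markers S100a8, S100a9 and Csf3r were at 12.3 CPM or more in every library. Their wild-type means were 4.9, 4.7 and 6.2 times their KO means. The part of neutrophils in the difference in Slc11a1 was not tested.

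Slc40a1 encodes ferroportin, the exporter of iron, and lies at chr1:45908068-45926523 (minus strand). It measured 83.9 and 83.0 CPM in wild-type and 11.1 and 11.5 CPM in TNFR2 KO. The wild-type mean was 7.40 times the KO mean, or -2.89 on the log2 scale (SE 0.0529, adjusted p = 4.64e-13). Among the 4 genes in which the search found an iron-responsive element, the exporter thus differed most and Tfrc least, with the ferritin chains between them. An isoform of Slc11a2, which differed less than Tfrc, is also known to carry such an element, but the search covered 1 transcript per gene with strict pairing and found no match in that of Slc11a2.

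Hmox1, which opens the heme ring and frees its iron, lies at chr8:75093621-75100589 (plus strand). It measured 199 and 208 CPM in wild-type and 35.8 and 34.2 CPM in TNFR2 KO. The wild-type mean was 5.80 times the KO mean, or -2.53 on the log2 scale (SE 0.0403, adjusted p = 1.39e-13). Hmox2, the constitutive heme oxygenase, measured 61.0 and 59.2 CPM in wild-type and 56.3 and 53.6 CPM in TNFR2 KO, which is -0.13 on the log2 scale (adjusted p = 0.0305). The ratio of Hmox1 to Hmox2 counts was therefore 3.25 and 3.51 in wild-type and 0.637 in both KO libraries.

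Spic, at chr10:88674772-88685015 (minus strand), encodes Spi-C. It measured 46.7 and 42.5 CPM in wild-type and 5.69 and 5.84 CPM in TNFR2 KO, the lowest level of the 10 genes in the KO libraries. The log2-fold change was -2.95 (SE 0.0765, adjusted p = 9.76e-12), and 5.79% of its 31-base stretches were shared with other genes. Vcam1, an adhesion molecule of red-pulp macrophages and of activated endothelium, lies at chr3:116109949-116129688 (minus strand). It measured 115 and 112 CPM in wild-type and 12.7 and 11.3 CPM in TNFR2 KO. The KO level was 10.6% of wild-type, and the log2-fold change of -3.24 (SE 0.0554, adjusted p = 2.72e-13) was the largest of the 10.

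Macrophage markers were lower along with these 5 genes of the phagosome, export, heme and red pulp, whose log2-fold changes ran from -3.24 to -2.53. The median of the 17 markers was -2.91, with a range from -3.67 to -0.41. Past both thresholds, 15 of 17 were lower, beside 11.8% of all genes. Medians in the same range were found for megakaryocyte markers (-2.68) and for dendritic cell or class II markers without Itgax (-2.92). Neutrophil, erythroid and basophil or mast cell markers had medians of -2.29, -1.85 and -5.41. Per 100 CPM of macrophage markers, the 5 genes summed to 36.2 and 36.1 CPM in wild-type and 26.9 and 25.9 CPM in TNFR2 KO. The defining markers Adgre1, Csf1r and Itgad were above 8 CPM in every library, at 95.5 ± 2.21, 255 ± 0.91 and 53.9 ± 3.03 CPM in wild-type and 9.26 ± 0.609, 27.0 ± 0.51 and 40.7 ± 1.01 CPM in the KO group (SD, n = 2 each). Their part in the differences was not tested. Endothelial and stromal cells may also carry Vcam1, and their listed markers were low apart from Pecam1. Which cells the Pecam1 transcripts came from was not tested. Of their 15 listed markers, 8 could be tested, of which 5 were lower and 1 higher, beside 26.2% and 24.2% of all genes. Their summed level was 120 to 126 CPM in wild-type and 139 to 140 CPM in TNFR2 KO. Without Pecam1, the one that was higher, the sum was 14.4 to 15.6 CPM in wild-type and 4.90 to 5.64 CPM in TNFR2 KO, and the 5 lower markers were Kdr, Vwf, Stab2, Col1a2 and Pdgfrb, named after their values were seen. Their part in the difference in Vcam1 was not tested. Of their defining markers, Cdh5 and Pdgfrb were under 1 CPM in every library, while Pecam1 was at 105 and 110 CPM in wild-type and 134 CPM in both KO libraries.

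**Figure D3:**
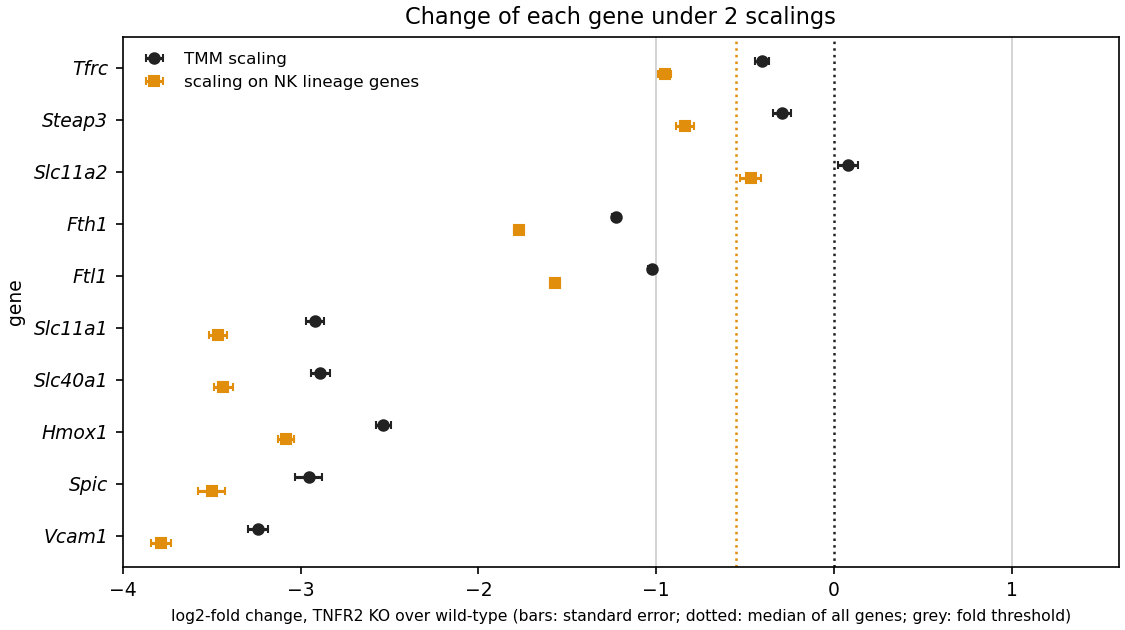
Log2-fold change (TNFR2 KO relative to wild-type) for each gene with TMM scaling (black circles) and with scaling on NK lineage genes (orange squares), with standard errors as bars and the median of all genes as dotted lines at -0.003 and -0.55. The other scaling moves every gene to the left by about the same amount, which takes Slc11a2 from 0.08 to -0.47.

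Levels of different genes were set side by side per kilobase of the principal transcript. In wild-type, Ftl1 led with 1435 CPM per kilobase, followed by Fth1 at 1041, Hmox1 at 129, Slc11a1 at 42.5 and Vcam1 at 32.8 CPM per kilobase. Spic at 25.3 and Slc40a1 at 24.8 CPM per kilobase came next and overlapped between libraries, and Tfrc at 18.6, Steap3 at 9.84 and Slc11a2 at 7.90 CPM per kilobase were lowest. In TNFR2 KO the ferritin chains still led, with 706 CPM per kilobase for Ftl1 and 445 for Fth1, and Hmox1 was at 22.3. Tfrc at 14.1, Slc11a2 at 8.34 and Steap3 at 8.04 CPM per kilobase now stood above Slc11a1 at 5.63 CPM per kilobase. Vcam1 at 3.46, Slc40a1 at 3.35 and Spic at 3.27 CPM per kilobase were lowest in the KO libraries, and the values of each gene overlapped with those of its neighbour in this order. Transcript isoforms were not resolved, so these levels depend on the transcript chosen.

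The genes whose profile over the 4 libraries lay nearest by Euclidean distance of centred log2 CPM were St3gal3 (distance 0.0121) and Ankrd28 (0.0186) for Tfrc, Fcgr1 (0.0216) and C1qc (0.026) for Slc40a1, and Pcna-ps2 (0.0247) and Gm13841 (0.0356) for Spic. Fcgr1, an Fc receptor of macrophages, was at 79.6 and 79.3 CPM in wild-type and 10.7 and 11.1 CPM in TNFR2 KO, and C1qc, a chain of complement C1q, was at 67.2 and 65.8 CPM against 9.02 and 9.21 CPM. With 4 libraries in 2 groups, this measure mostly ranks genes by the size of their change.

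Of 60 further genes of iron and heme handling, 50 could be tested, and 26 (52%) of these were lower and 4 (8%) higher in TNFR2 KO at an adjusted p under 0.05. Over all genes the shares were 26.2% and 24.2%. Past both thresholds, 13 (26%) of the further iron genes were lower, beside 11.8% of all genes. Their median log2-fold change was -0.14, and 18 of the 60 were under 10 CPM in wild-type and 24 in TNFR2 KO.

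Carriers of iron and genes of heme handling held 11 of these 13. Among carriers and transporters of iron, 6 of 9 tested genes were lower past both thresholds, with a median of -1.89, beside 11.8% of all genes. Some of the 6 were low in every library. With a minimum mean of 10 CPM, 3 of 6 tested genes were lower past both thresholds, with a median of -1.06, beside 4.79% of all genes. Trf, which encodes transferrin itself, was at 36.7 and 40.9 CPM in wild-type and 5.51 and 3.90 CPM in TNFR2 KO, which is -3.02 on the log2 scale (adjusted p = 3.75e-10). Ltf, the lactoferrin of neutrophil granules, fell by 1.94 on the log2 scale, from 36.2 ± 1.73 to 9.34 ± 1.46 CPM (SD, n = 2 each; adjusted p = 2.33e-09 in edgeR's test). The zinc and iron importer Slc39a14 measured 25.4 ± 1.42 and 25.5 ± 1.49 CPM (SD, n = 2 each; log2-fold change 0.005, adjusted p = 0.961 in edgeR's test).

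In the list of heme handling, 12 of 14 tested genes were lower at an adjusted p under 0.05, 5 of them past both thresholds, and 1 was higher, beside 26.2% lower, 11.8% lower past both thresholds and 24.2% higher over all genes. Lrp1, a receptor for hemopexin and other ligands, was at 103 and 97.4 CPM in wild-type and 10.5 and 11.8 CPM in TNFR2 KO, which is -3.18 on the log2 scale (adjusted p = 7.57e-13). Blvrb, a biliverdin reductase, was at 32.8 and 32.9 CPM against 8.61 and 8.52 CPM, which is -1.94 on the log2 scale (adjusted p = 2.08e-10). Keap1, which restrains the stress factor Nrf2 and was the most abundant gene of the list, was at 109.9 and 112 CPM against 99.5 and 102 CPM, a small difference (-0.14 on the log2 scale, adjusted p = 0.00423). Pgrmc1, a heme-binding membrane protein and the next in abundance, was at 65.7 and 65.4 CPM against 69.9 and 69.3 CPM, and its difference of 0.09 on the log2 scale did not pass the test (adjusted p = 0.0792).

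Genes of iron sensing and of the mitochondrial use of iron had medians near that of all genes. With scaling on NK lineage genes, 8 of 9 and 17 of 18 of them were lower at an adjusted p under 0.05, where 80.1% of all genes were lower. Their medians were then -0.67 and -0.56, beside -0.55 over all genes. With TMM scaling, 5 of 9 tested sensing genes were lower and 2 higher at an adjusted p under 0.05, beside 26.2% and 24.2% of all genes. Their median was -0.12. The 2 past both thresholds were low in every library: Hfe, a regulator of hepcidin, was at 8.23 and 7.89 CPM in wild-type and 1.396 and 1.467 CPM in TNFR2 KO, and Tfr2, the second transferrin receptor, was at 4.14 and 4.42 CPM against 1.396 and 1.186 CPM. The iron chaperones Pcbp2 and Pcbp1, the most abundant genes of this list, had log2-fold changes of 0.08 (adjusted p = 0.0189) and -0.12 (adjusted p = 0.00392). Both values were smaller than the shift of 0.55 that scaling on NK lineage genes brought to the median gene. The messenger RNAs of the iron regulatory proteins, chosen after their values were seen, differed by less than the test could call, with Aco1 at 47.4 and 47.6 CPM against 46.5 and 46.2 CPM (adjusted p = 0.555) and Ireb2 at 83.9 CPM in both wild-type libraries against 85.8 and 80.8 CPM (adjusted p = 0.87).

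Of 18 tested genes of mitochondrial iron transport and iron-sulfur cluster assembly, 3 were lower and 1 higher at an adjusted p under 0.05 and 14 were neither, beside the same 26.2% and 24.2% over all genes. Their log2-fold changes were centred at -0.02 and lay between -0.52 and 0.41. The most abundant of them, Nubp1 and Nubp2, which assemble clusters in the cytosol, had log2-fold changes of -0.06 and 0.05 (adjusted p = 0.232 and 0.379 in edgeR's test).

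**Figure D4:**
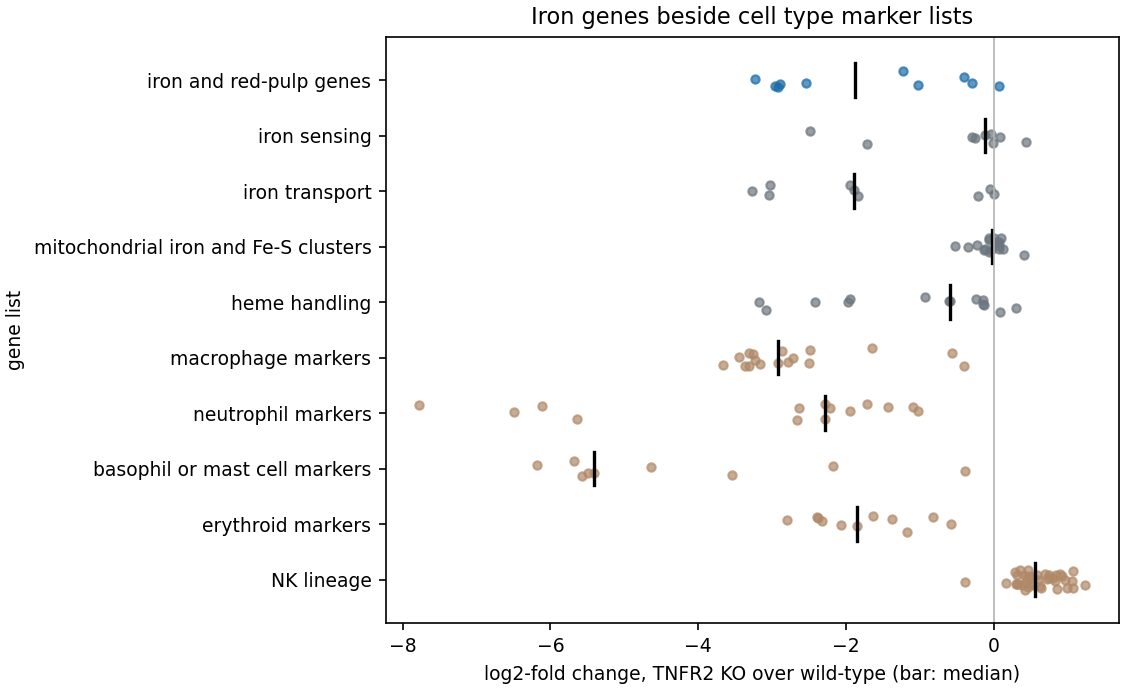
Log2-fold change (TNFR2 KO relative to wild-type) for each tested gene, by list, with the 10 iron and red-pulp genes in blue, the further iron genes in grey, cell type markers in brown and medians as black bars. The 10 genes spread from -3.24 to 0.08, the mitochondrial list is centred at -0.02, the macrophage list at -2.91 and the NK lineage list at 0.56.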

How the data were processed

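The deposited table held estimated counts (expected counts) per gene symbol, which the authors made from poly-A selected, stranded, paired-end reads by trimming with Trimmomatic, assignment to mm10 transcripts with Kallisto 0.46.1 and summing with Tximport, with no scaling between libraries. Which transcript annotation was used is not stated in the sources at hand. A row with no gene name (0.0559% to 0.0728% of counts) was left out. Counts were rounded, filtered with filterByExpr, given TMM factors and tested by edgeR 4.0.16 (R 4.3.3; quasi-likelihood test, genotype as the only term, Benjamini-Hochberg adjustment). A log2-fold change is TNFR2 KO over wild-type, and its standard error is its size divided by the root of the F statistic. The steps were also run on simulated data in which genes changed at random in either direction, unlike the mostly lower calls here. That simulation does not bear on the choice of scaling.

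The smallest two-sided p that an exact permutation of 4 libraries in 2 groups allows is 0.333. The p-values compare these pools, and whether the duplicates came from different mice is not stated. Duplicates differed by more than counting noise (mean chi-square per gene 3.29 and 3.49, where noise alone gives about 1). The description label of each sample says that libraries of the same number came from the same pooled spleens, which makes the numbers a pairing. The correlation of their deviations was 0.0243 across genes.

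Positions, transcript lengths, sequences and shared 31-base stretches came from GENCODE M21 on GRCm38, with 1 transcript per gene chosen by APPRIS rank, then support level, then length. This annotation replaces that of the authors. The 10 genes, the marker lists and the further iron genes were chosen with earlier results of these data known. Besides the 10 genes, the text names Tnfrsf1b, the first 3 genes of the marker lists described gene by gene, the 2 most abundant genes (mean over 4 libraries) and the 2 genes of smallest adjusted p past both thresholds in each list of further iron genes, and the 2 nearest profiles for Tfrc, Slc40a1 and Spic. Aco1, Ireb2, Hmox2, Slc22a17, Slc46a1, Itgax, Mpo, Elane, Prtn3, Ctsg and 4 lower stromal or endothelial markers were added after their values were seen. Plots were drawn with matplotlib 3.10.9.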

Additional observations from a re-analysis of the deposited data

How the results depend on the processing

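Results were recomputed with other scalings (the size factors of DESeq2, the upper quartile, the plain library size, 40 NK lineage genes), with DESeq2 1.42.0 as the test, without a filter and with a minimum mean of 10 CPM, with the replicate number as a block, and leaving out each library in turn. The number of the 10 genes lower past both thresholds was 7 under each of them except without wild-type replicate 2 and without TNFR2 KO replicate 1, where it was 6, as Ftl1 dropped below the fold threshold. Scaling on NK lineage genes reversed Slc11a2, to -0.47. It gave 2642 genes lower and 59 higher past both thresholds, against 1627 and 215, and 17 further iron genes, against 13. With the replicate block, 1830 genes were called in all, against 1842, and the call of none of the 10 genes changed. The minimum mean of 10 CPM left 478 of 8763 genes called in all and 7 of 42 further iron genes, since fewer low genes were tested. The further iron genes called numbered 11 to 13 with a library left out. Results for low genes rest on few reads. Spic, the lowest of the 10 genes in TNFR2 KO, had 220 and 187 counts there, and Hfe and Tfr2 had 38 to 54. Others of the further iron genes called had fewer still, such as Slc22a17 (5 and 1 counts in TNFR2 KO) and Slc46a1 (5 and 3). Reads of Ftl1 may be split with its pseudogenes.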
